A study of Mus musculus with 6 samples.

Results

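The genes examined were 35 genes that act in the G2/M phase of the cell cycle and in mitosis. They were chosen by name for their roles in entry into mitosis, building the spindle, segregating chromosomes and dividing the cell. This choice, and that of the lists described below, was made with earlier results of these data known. All 35 were found by name among the 36976 genes measured. The study asked what the lysophospholipase D enzyme Gdpd3 does in the stem cells of chronic myelogenous leukaemia (CML). RNA-Seq was carried out on 6 libraries of LT-CML stem cells, the most primitive leukaemia stem cells, sorted from bone marrow of the hind limbs as CD150+CD48-CD135- LSK cells. LSK cells lack lineage antigens and carry Sca-1 and cKit. There were 3 libraries from Gdpd3+/+ mice, replicates 1, 2 and 3, and 3 from Gdpd3-/- mice, replicates 5, 6 and 7.

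Mice of both genotypes were C57BL/6 tet-CML mice that carried the transgenes SCL-tTA and TRE-BCR-ABL1, so the Gdpd3+/+ controls were leukaemic too. Withdrawal of doxycycline at 5 weeks of age switched the BCR-ABL1 oncogene on, and cells were taken 5 weeks later, when the mice were 10 to 12 weeks old. The Gdpd3-/- mice carried a small deletion near the start of the Gdpd3 coding sequence, made by genome editing in embryos. As a model it is limited in that the oncogene is driven by a transgene active where SCL elements are, and not from the Bcr locus as in patients. Animals behind the libraries were 22 male and 12 female Gdpd3+/+ mice, and 5 of each sex for Gdpd3-/-, so cells of several animals were pooled, and which animals made which library is not given in the sources used here. P-values therefore measure the spread between these pooled samples. No cell cycle phase was measured in the cells of these libraries.

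Values are FPKM, in which fragment counts are scaled to exon length and library depth. Depth, in fragments on genes, was 49753146, 62762437 and 61283166 for the Gdpd3+/+ replicates and 21334716, 36421439 and 25136824 for the Gdpd3-/- replicates, in the order of their numbers. The ratio of the median depths of the genotypes was 2.44. The smallest number of fragments behind a member in any library was 270, for Ndc80.

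A cell enters mitosis when cyclin B and cyclin A activate the kinase Cdk1, whose action is spread by the Polo and Aurora kinases. The spindle checkpoint then holds back the anaphase-promoting complex, a ubiquitin ligase, until every kinetochore is attached to the spindle, and cytokinesis follows once cyclin B is destroyed. Transcripts of these genes are low in quiescent cells and peak from G2 to mitosis, and normal long-term haematopoietic stem cells are mostly quiescent.

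Gdpd3, the disrupted gene, was measured at 7.30, 3.29 and 2.95 FPKM in Gdpd3+/+ cells (replicates 1, 2 and 3) and at 0.110, 0.0129 and 0.681 FPKM in Gdpd3-/- cells (replicates 5, 6 and 7). The genotypes did not overlap, and Gdpd3-/- replicate 7 held the most Gdpd3 transcript of its genotype. Limma with Benjamini-Hochberg adjustment gave a log2 fold change of -4.00 (SE 0.77, adjusted p = 0.0588), on the log2(FPKM + 0.1) scale used for all fits, which understates changes of genes as low as this. Its exons share 190 bases with Gm9967 on the opposite strand, and the counting is not stated to use strand.

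Of the 35 members, 34 had a negative fitted log2 fold change in Gdpd3-/- cells and Ube2c alone had a positive value. The number of negative members was 33 without Gdpd3-/- replicate 6 and with replicate 7 as the only Gdpd3-/- library. It was 34 in the other alternatives. Across the members the median log2 fold change was -0.52, and the middle of the list, from the lower to the upper quartile, ran from -0.73 to -0.42. Over all 24689 genes tested the median was 0.24, so the members lay -0.76 from it. In bulk samples, fewer cells of a type and less RNA per cell cannot be told apart, and this applies to every member. In 27 of 35 members all Gdpd3-/- libraries were lower than all Gdpd3+/+ libraries (77.1%), against 8.27% of all genes tested. In 1 member, Ube2c, every Gdpd3-/- library lay above, against 23.5% of all genes. The genotypes overlapped in 7 members, which were Cenpa, Cenpe, Cenpf, Nuf2, Cdc25c, Racgap1 and Ect2. Among the 15103 genes with a mean of at least 1 FPKM, which included every member, 10.2% lay below and 28.2% above without overlap, with a median log2 fold change of 0.14.

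Limma with Benjamini-Hochberg adjustment over all genes called 1 member, Cdk1, as lower and 0 members as higher at an adjusted p under 0.05. It called 422 of all genes tested (1.71%), 152 lower (0.616%) and 270 higher (1.09%). At an unadjusted p under 0.05, 24 members were lower and 1 was higher, of 5493 genes in all. The number of members called moved with single libraries. It was 0 without Gdpd3+/+ replicate 1, 2 or 3 or without Gdpd3-/- replicate 5, where limma still gave 20, 19, 18 and 25 members at an unadjusted p under 0.05, and 15 without Gdpd3-/- replicate 7, of which 14 were lower (Mki67, Top2a, Ccnb2, Cdk1, Aurka, Cdca8, Kif11, Kif4, Kif2c, Nuf2, Nusap1, Prc1, Incenp and Ccnf) and Ube2c was higher. Over all genes limma called 0 when Gdpd3+/+ replicate 1 was left out (3356 had an unadjusted p under 0.05), 1 without replicate 2 and 21 without replicate 3. It was 187 without Gdpd3-/- replicate 5 and 3413 without replicate 7.

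The direction of the whole comparison moved with scaling, and 64.0% of calls were higher in Gdpd3-/- as deposited, 31.5% with TMM scaling and 36.6% with quantile normalization. These scalings moved the median of all genes by -0.19 and -0.25. Relative to the median of all genes, the median of the members was -0.76 as deposited, -0.78 with TMM scaling and -0.61 with quantile normalization. The same 34 members, all but Ube2c, stayed under the all-gene median in the fit as deposited and in each of its 16 alternatives. TMM scaling called 8 members lower and quantile normalization 4.

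**Figure D1:**
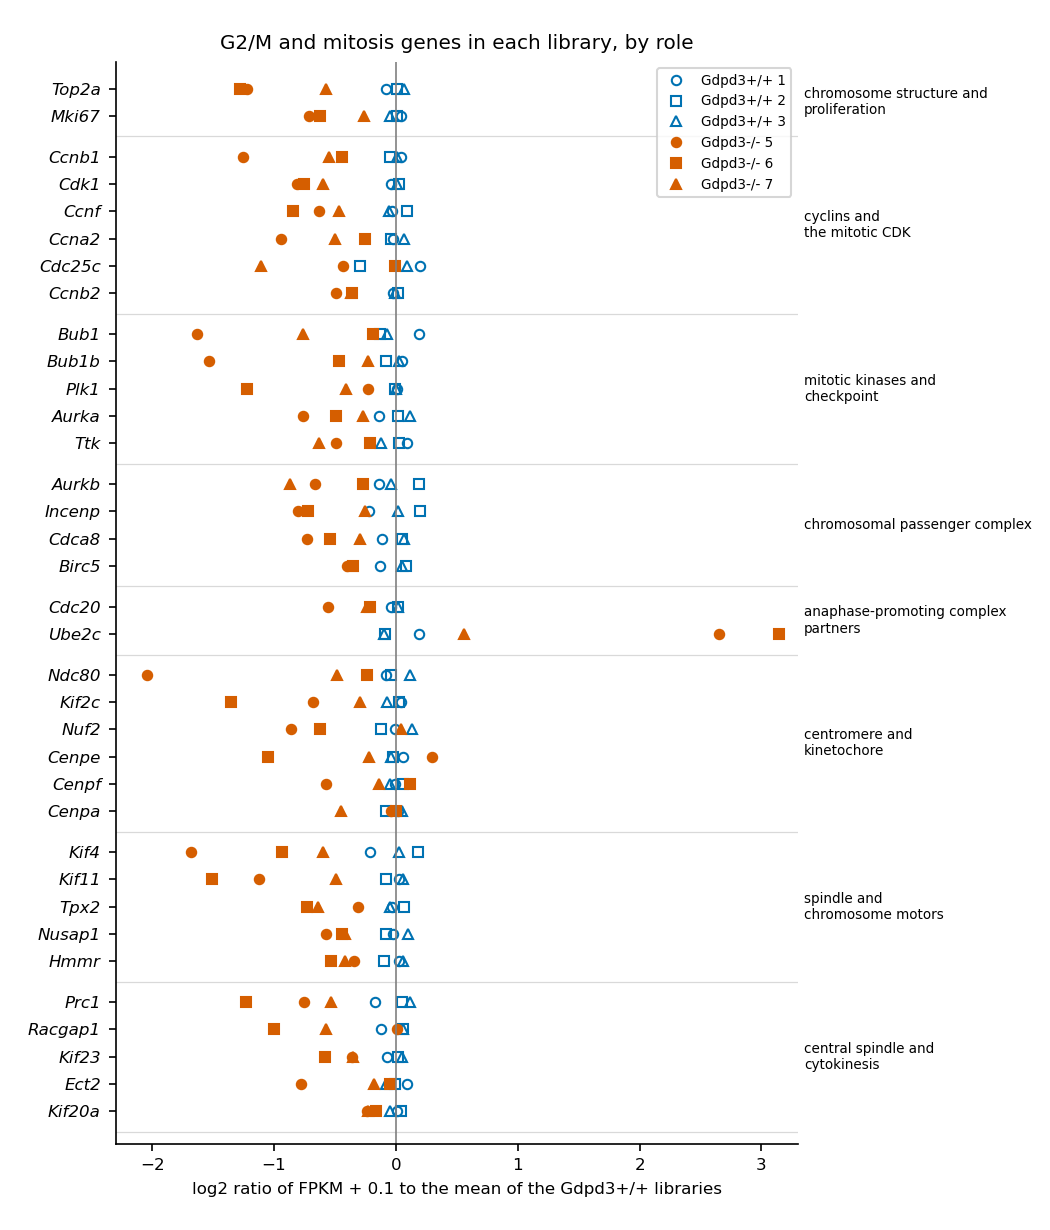
Log2 ratio of FPKM + 0.1 in each library (x axis) to the mean of the Gdpd3+/+ libraries for the 35 members, grouped by role. Open blue symbols are Gdpd3+/+ libraries and filled orange symbols Gdpd3-/- libraries, and 27 members have every filled symbol left of every open symbol, while Ube2c has them to the right.

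Cyclins and the mitotic kinase came first in the order of events. Cdk1, the kinase that drives entry into mitosis, had the smallest adjusted p of the members. It was measured at 45.7, 47.8 and 47.5 FPKM in Gdpd3+/+ and at 26.7, 27.8 and 30.9 FPKM in Gdpd3-/-, listed here and below by replicate number. The libraries of each genotype lay close together and the genotypes were well apart. Cdk1 fell from a mean of 47.0 ± 1.16 FPKM (SD, n = 3) to 28.5 ± 2.18 FPKM (SD, n = 3). Limma gave a log2 fold change of -0.72 (SE 0.10, 95% confidence interval -0.96 to -0.49, Benjamini-Hochberg adjusted p = 0.0315), with the lower value in 3 of 3 Gdpd3-/- libraries. Its adjusted p was 0.186, 0.199 and 0.192 without Gdpd3+/+ replicate 1, 2 or 3 and 0.0582 without Gdpd3-/- replicate 5, by the same method, and ranged from 0.00853 to 0.199 over all alternatives. A two-sided exact permutation test of its mean FPKM gave p = 0.1, which is the least that groups of 3 can reach. Cdk1 (ENSMUSG00000019942.6) lies on the minus strand at chr10:68799383-68815686 of mm9, the build of the deposited table.

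Ccnb1, the cyclin B1 partner of Cdk1, was measured at 60.4, 56.8 and 58.9 FPKM in Gdpd3+/+ and at 24.6, 43.3 and 39.9 FPKM in Gdpd3-/- replicates 5, 6 and 7. All 3 Gdpd3-/- libraries lay below all Gdpd3+/+ libraries, with replicate 5 the lowest. The means were 58.7 ± 1.83 and 35.9 ± 9.98 FPKM (SD, n = 3 each), with a log2 fold change of -0.75 (SE 0.21, limma, Benjamini-Hochberg adjusted p = 0.113), the lowest of its group. Ccnb2, the second B-type cyclin, had the highest mean of any member but Ube2c and the least negative fitted value of the cyclin group. It stood at 99.7, 103 and 100 FPKM in Gdpd3+/+ and at 71.7, 78.4 and 78.1 FPKM in Gdpd3-/-. The genotypes did not overlap, and the libraries of each lay within 7 FPKM of each other, with a log2 fold change of -0.41 (SE 0.08, limma, Benjamini-Hochberg adjusted p = 0.0668). Without Gdpd3-/- replicate 7 the limma adjusted p of Ccnb2 was 0.0290, in a range up to 0.294. Ccna2, cyclin A2, ran from 76.8 to 82.9 FPKM in Gdpd3+/+ and from 41.1 to 66.6 FPKM in Gdpd3-/-, and Ccnf, cyclin F, from 23.0 to 25.6 and from 13.4 to 17.4 FPKM. Neither overlapped. Cdc25c, a phosphatase that activates Cdk1, did overlap, at 15.3, 10.9 and 14.2 FPKM in Gdpd3+/+ and 9.85, 13.2 and 6.13 FPKM in Gdpd3-/-. Of the 6 genes in this group 5 had no overlap, and the median log2 fold change was -0.60.

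**Figure D2:**
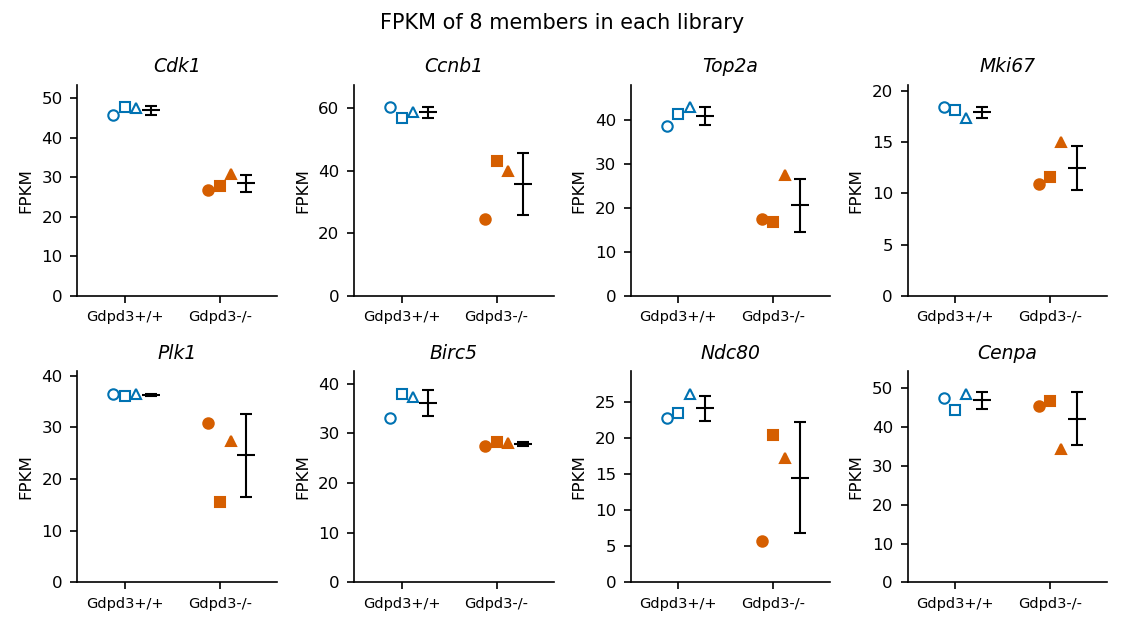
FPKM of 8 members (y axis, from 0) in each Gdpd3+/+ library (open blue symbols) and Gdpd3-/- library (filled orange symbols), with the mean and 1 SD of the 3 libraries as black bars. Cdk1 and Birc5 have Gdpd3-/- libraries close together, Ndc80 and Plk1 have 1 Gdpd3-/- library far below the others, and the genotypes overlap in Cenpa.

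Promoters of the members were searched for sequence elements that the choice of members did not use. Genes of this phase of the cycle are known to be held down in quiescent cells, and later induced, by complexes that bind the cell cycle homology region (CHR) near the transcription start, often beside CCAAT boxes. Windows of 300 bases, 250 before and 50 from the start base on, were taken from RefSeq on GRCm38.p6 and searched on both strands for the CHR core forms TTTGAA and TTCGAA and for the box CCAAT. Of the 35 members 29 had a window, and Ccna2, Aurkb, Kif20a, Tpx2, Cdc25c and Incenp had none in the table. Shares of the members and of the lists below count genes, where any window of the gene held the motif. Shares of all promoters count windows. The members had 31 windows, of which 25 held TTTGAA and 24 held CCAAT with a CHR form. TTTGAA was in the windows of 23 of 29 members (79.3%), against 17.9% of all 32851 promoter windows. TTCGAA was in those of 3 members, against 1.56%, so that 24 members held either form (82.8%), against 19.2%. CCAAT was in 24 members (82.8%), against 37.4%, and 22 members held CCAAT and a CHR form together (75.9%), against 7.52%. CCAAT was as frequent in the brakes on CDK activity, described below (9 of 11 genes, 81.8%), of which 1 held a CHR form. No CHR form was found for Birc5, Ccnb1, Cenpe, Nuf2 and Nusap1. A match is a description of the letters and not a site of binding. The windows of Cdk1, Ccnb2 and Ccnb1 are shown because Cdk1 passed the test and both cyclins are its partners. Each runs 5′ to 3′ along the minus strand of GRCm38.p6 over 230 bases before the start and 20 from it on, with matches to the searched motifs on either strand in capitals (TTCAAA and ATTGG are the reverse complements of TTTGAA and CCAAT). The Cdk1 window lies at chr10:69352893-69353142, that of Ccnb2 at chr9:70421535-70421784 and that of Ccnb1 at chr13:100786467-100786716.
Cdk1: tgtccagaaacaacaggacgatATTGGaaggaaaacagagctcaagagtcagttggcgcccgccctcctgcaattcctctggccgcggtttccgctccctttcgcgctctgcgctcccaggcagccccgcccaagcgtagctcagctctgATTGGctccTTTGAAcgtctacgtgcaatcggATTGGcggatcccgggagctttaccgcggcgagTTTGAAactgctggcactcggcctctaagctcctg
Ccnb2: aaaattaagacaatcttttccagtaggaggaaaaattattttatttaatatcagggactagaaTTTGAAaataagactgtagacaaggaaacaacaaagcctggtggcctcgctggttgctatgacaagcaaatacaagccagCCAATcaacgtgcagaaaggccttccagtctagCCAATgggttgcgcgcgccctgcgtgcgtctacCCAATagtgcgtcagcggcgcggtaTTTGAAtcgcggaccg
Ccnb1: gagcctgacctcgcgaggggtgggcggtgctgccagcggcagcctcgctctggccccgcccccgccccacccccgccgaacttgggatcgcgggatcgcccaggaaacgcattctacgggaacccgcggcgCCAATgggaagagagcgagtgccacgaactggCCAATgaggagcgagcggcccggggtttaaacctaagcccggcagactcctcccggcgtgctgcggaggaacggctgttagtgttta
The Cdk1 window held TTTGAA from base -71 and from base -15, counted from the transcription start, and CCAAT on the opposite strand at 3 places. Ccnb2 had TTTGAA from -167 and from base 5, with CCAAT from -87, -54 and -21. In the Ccnb1 window there were CCAAT matches from -99 and -67 and neither CHR form.

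Top2a and Mki67 stand for chromosome structure and proliferation. Top2a, the topoisomerase that untangles sister chromatids, was measured at 38.5, 41.2 and 42.8 FPKM in Gdpd3+/+ and at 17.5, 16.7 and 27.5 FPKM in Gdpd3-/- replicates 5, 6 and 7. Replicate 7 was nearest to Gdpd3+/+ and still below all of it. The means were 40.8 ± 2.13 and 20.6 ± 6.00 FPKM (SD, n = 3 each), and the log2 fold change was -1.02 (SE 0.20, limma, Benjamini-Hochberg adjusted p = 0.0601). Without Gdpd3-/- replicate 7 the limma adjusted p of Top2a was 0.00476, in a range of 0.00476 to 0.276 over the alternatives. Mki67, whose protein Ki-67 coats mitotic chromosomes and marks cycling cells, was measured at 18.4, 18.1 and 17.3 FPKM in Gdpd3+/+ and at 10.9, 11.6 and 15 FPKM in Gdpd3-/-. Again replicate 7 was the highest of its genotype, and the genotypes did not overlap. Its log2 fold change was -0.53 (SE 0.15, limma, Benjamini-Hochberg adjusted p = 0.109), and without Gdpd3-/- replicate 7 the adjusted p was 0.0192, in a range up to 0.338. The Top2a promoter is shown as a window with both CHR core forms, which Bub1b also held, and lies at chr11:99024170-99024419 on the minus strand of GRCm38.p6, printed as above.
Top2a: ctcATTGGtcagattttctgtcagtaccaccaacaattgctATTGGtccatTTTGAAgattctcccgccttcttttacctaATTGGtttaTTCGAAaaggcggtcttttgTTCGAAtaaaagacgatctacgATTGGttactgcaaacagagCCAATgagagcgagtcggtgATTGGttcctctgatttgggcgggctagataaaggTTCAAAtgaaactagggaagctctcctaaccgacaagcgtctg
In capitals it holds TTTGAA from -179, its reverse complement from -23, TTCGAA from -140 and -120, and CCAAT or its reverse complement at 6 places.

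The mitotic kinases and checkpoint group had 5 members, and all 5 had no overlap, with a median log2 fold change of -0.62. Plk1, the Polo kinase, was even in Gdpd3+/+ and uneven in Gdpd3-/-, at 36.5, 36.1 and 36.4 FPKM against 30.9, 15.5 and 27.3 FPKM in replicates 5, 6 and 7. Replicate 6 stood far below the other 2 libraries of its genotype. The means were 36.3 ± 0.208 and 24.6 ± 8.05 FPKM (SD, n = 3 each), with a log2 fold change of -0.62 (SE 0.25, limma, Benjamini-Hochberg adjusted p = 0.213). That of Plk1 ran from -0.83 to -0.32 over the alternatives. Bub1, a checkpoint kinase at kinetochores, had the most negative fitted value of the group, from 13.2, 10.6 and 11 FPKM in Gdpd3+/+ and 3.66, 10.1 and 6.78 FPKM in Gdpd3-/-. Here replicate 5 was the lowest and replicate 6 came within 1 FPKM of Gdpd3+/+, and the log2 fold change was -0.86 (SE 0.35, limma, Benjamini-Hochberg adjusted p = 0.219). For Bub1 it ran from -1.19 to -0.47 over the alternatives. Ttk, the checkpoint kinase also called Mps1, had the least negative value, at 14.8, 14.2 and 12.7 FPKM against 9.88, 12.0 and 8.93 FPKM. Its log2 fold change was -0.44, smaller than that of Bub1 and with less spread. Bub1b, which encodes the checkpoint protein BubR1, and Aurka, the Aurora kinase of spindle poles, had log2 fold changes of -0.74 and -0.51. In both of them Gdpd3-/- replicate 5 was the lowest library, at 11.3 and 17.4 FPKM against at least 31.2 and 26.8 FPKM in Gdpd3+/+.

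The chromosomal passenger complex corrects wrong attachments of chromosomes to the spindle, and its 4 subunits are all members. All 4 had no overlap, and their log2 fold changes lay between -0.60 and -0.37. Aurkb, its kinase, had 42.9, 54.0 and 46.0 FPKM in Gdpd3+/+ and 30, 39.3 and 25.9 FPKM in Gdpd3-/-. The nearest libraries of the genotypes were 39.3 and 42.9 FPKM, and the log2 fold change was -0.60 (SE 0.18, limma, Benjamini-Hochberg adjusted p = 0.119). Birc5, which encodes survivin, had 33, 38.0 and 37.3 FPKM in Gdpd3+/+ and 27.4, 28.2 and 28.1 FPKM in Gdpd3-/-. The Gdpd3-/- libraries were within 1 FPKM of each other, at a mean of 27.9 ± 0.461 FPKM (SD, n = 3), and the log2 fold change was -0.37 (SE 0.10, limma, Benjamini-Hochberg adjusted p = 0.101). Incenp, the scaffold, and Cdca8, which encodes borealin, had log2 fold changes of -0.59 and -0.52.

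Of 6 genes of the centromere and kinetochore only Ndc80 and Kif2c had no overlap, and the median log2 fold change was -0.40. Ndc80, the subunit that grips microtubules at the outer kinetochore, was measured at 22.8, 23.4 and 26.1 FPKM in Gdpd3+/+ and at 5.76, 20.4 and 17.2 FPKM in Gdpd3-/-. Replicate 5 was far below all other libraries and replicate 6 close to Gdpd3+/+. The means were 24.1 ± 1.74 and 14.5 ± 7.69 FPKM (SD, n = 3 each), and the log2 fold change of -0.92 had an SE of 0.45 (limma, Benjamini-Hochberg adjusted p = 0.282). Over the alternatives the log2 fold change of Ndc80 ran from -1.26 to -0.36. Kif2c, a kinesin that takes microtubules apart at kinetochores, ranged from 12.5 to 13.5 FPKM in Gdpd3+/+ and from 5.09 to 10.7 FPKM in Gdpd3-/-. Cenpa, the histone H3 variant that marks centromeres, was at 47.6, 44.5 and 48.6 FPKM in Gdpd3+/+ and at 45.5, 46.7 and 34.4 FPKM in Gdpd3-/-. Replicates 5 and 6 fell inside the range of Gdpd3+/+ and replicate 7 below it, and the log2 fold change was -0.16 (SE 0.14, limma, Benjamini-Hochberg adjusted p = 0.507), the least negative of the 34. Over the alternatives that of Cenpa ran from -0.45 to -0.02. Cenpe, a kinesin that moves chromosomes to the spindle equator, had its highest and its lowest value in Gdpd3-/-, at 9.94, 3.84 and 6.94 FPKM against 8.41, 7.97 and 7.86 FPKM. Cenpf, a kinetochore protein, and Nuf2, the partner of Ndc80, also overlapped, with log2 fold changes of -0.20 and -0.48.

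Genes for the spindle and its motors had 5 members, none with overlap, and a median log2 fold change of -0.56. Kif4, a chromosome-bound kinesin, had the most negative fitted value of all members, from 8.97, 11.8 and 10.6 FPKM in Gdpd3+/+ and 3.18, 5.42 and 6.84 FPKM in Gdpd3-/-. Every Gdpd3-/- library lay at least 2 FPKM below every Gdpd3+/+ library, and the log2 fold change was -1.07 (SE 0.29, limma, Benjamini-Hochberg adjusted p = 0.105). The limma adjusted p of Kif4 was 0.0382 without Gdpd3-/- replicate 7, in a range up to 0.334. Exons of Kif4 share 832 bases with Pdzd11 on the opposite strand, so that fragments of this stretch could come from either gene. Kif11, the motor that pushes spindle poles apart, was next, with 36.7, 33.9 and 37.4 FPKM in Gdpd3+/+ and 16.5, 12.5 and 25.6 FPKM in Gdpd3-/-. Its log2 fold change was -1.04 (SE 0.25, limma, Benjamini-Hochberg adjusted p = 0.0867), and it is named after its values were seen. Hmmr, a spindle-associated protein, had the least negative value, at 14.7, 13.4 and 15 FPKM against 11.3, 9.89 and 10.7 FPKM. The libraries of each genotype differed by less than 2 FPKM, and its log2 fold change was -0.43 with a limma SE of 0.12 and a Benjamini-Hochberg adjusted p of 0.110. Tpx2, which activates Aurka on the spindle, and Nusap1, which bundles spindle microtubules, had log2 fold changes of -0.56 and -0.48.

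Genes for the central spindle and cytokinesis had a median log2 fold change of -0.43, and 3 of 5 had no overlap. Prc1, which bundles the antiparallel microtubules of the central spindle, had 17.9, 20.8 and 21.9 FPKM in Gdpd3+/+ and 11.9, 8.53 and 13.9 FPKM in Gdpd3-/-. The genotypes were 4 FPKM apart at their nearest, with a log2 fold change of -0.84 (SE 0.20, limma, Benjamini-Hochberg adjusted p = 0.0863). The limma adjusted p of Prc1 was 0.0313 without Gdpd3-/- replicate 7, in a range up to 0.315. Kif20a, a kinesin of the cleavage furrow, had the least negative value, at 27.5, 28.1 and 26.4 FPKM against 23.1, 24.4 and 23.3 FPKM. The difference was small but larger than the spread within either genotype, with a log2 fold change of -0.21 (SE 0.09, limma, Benjamini-Hochberg adjusted p = 0.243). Exons of Kif20a share 1259 bases with Cdc23 on the opposite strand. Kif23, a motor of the centralspindlin complex, had no overlap and a log2 fold change of -0.43. Racgap1, the other centralspindlin subunit, and Ect2, the exchange factor that starts the cleavage furrow, overlapped, with log2 fold changes of -0.52 and -0.34. In Racgap1 Gdpd3-/- replicate 5 (20.3 FPKM) lay inside the Gdpd3+/+ range, and in Ect2 replicate 6 (13.8 FPKM) did.

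The 2 partners of the anaphase-promoting complex had fitted values of opposite sign, and limma called neither. Cdc20, which recruits its substrates in mitosis, was at 79.1, 83.0 and 82.7 FPKM in Gdpd3+/+ and at 55.2, 70.7 and 69.1 FPKM in Gdpd3-/-. The groups did not overlap, and its log2 fold change was -0.34 (SE 0.12, limma, Benjamini-Hochberg adjusted p = 0.168). Ube2c, the ubiquitin-conjugating enzyme that starts chains on cyclin B, was at 136, 112 and 111 FPKM in Gdpd3+/+ and at 748, 1050 and 176 FPKM in Gdpd3-/- replicates 5, 6 and 7. Replicates 5 and 6 were several times higher than every other library, and replicate 7 was above Gdpd3+/+ by less. The means were 120 ± 13.8 and 658 ± 445 FPKM (SD, n = 3 each), with a log2 fold change of 2.12 (SE 0.62, limma, Benjamini-Hochberg adjusted p = 0.118). Its adjusted p by limma was 0.00421 without Gdpd3-/- replicate 7, in a range up to 0.345.

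The Ube2c gene overlaps a muscle gene. In mm9 it spans chr2:164595398-164604322 on the plus strand, with 2600 exonic bases and a last exon at chr2:164602690-164604322 of 1633 bases. Tnnc2, which encodes troponin C of fast skeletal muscle, spans chr2:164602661-164605467 on the minus strand with 800 exonic bases. The genes share 592 exonic bases, which is 22.8% of Ube2c and 74.0% of Tnnc2. Tnnc2 was listed at 271, 193 and 188 FPKM in Gdpd3+/+ and at 2380, 3380 and 462 FPKM in Gdpd3-/- replicates 5, 6 and 7. Ube2c and Tnnc2 thus had the same order of libraries, with replicate 6 the highest, then replicate 5 and then replicate 7. The kit does not mark strand, and fragments from the shared bases cannot be told apart between the genes. The counts recovered from FPKM are fractional for 44.8% to 52.8% of genes above 0 in a library, and how shared fragments were divided is not stated in the sources used here. How much of the Ube2c value comes from Tnnc2 was not tested.

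Other muscle genes were also listed at higher FPKM in the Gdpd3-/- libraries. Of 15 skeletal muscle markers, 15 were above every Gdpd3+/+ library in each of the 3 Gdpd3-/- libraries (100%, against 23.5% of all genes tested). Their median log2 fold change was 2.85, against 0.24 for all genes. Limma called 0 of them, with 15 at an unadjusted p under 0.05, and called 15 without Gdpd3-/- replicate 7. Their summed FPKM was 1370, 957 and 920 in Gdpd3+/+ against 11900, 17100 and 2260 in Gdpd3-/-. The most abundant was Acta1, skeletal muscle actin, at 344, 238 and 232 FPKM in Gdpd3+/+ and 2970, 4540 and 555 FPKM in Gdpd3-/-. No gene of this list was at 0 in any library. These 15 genes took 1.58%, 2.27% and 0.298% of the fragments of Gdpd3-/- replicates 5, 6 and 7.

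**Figure D3:**
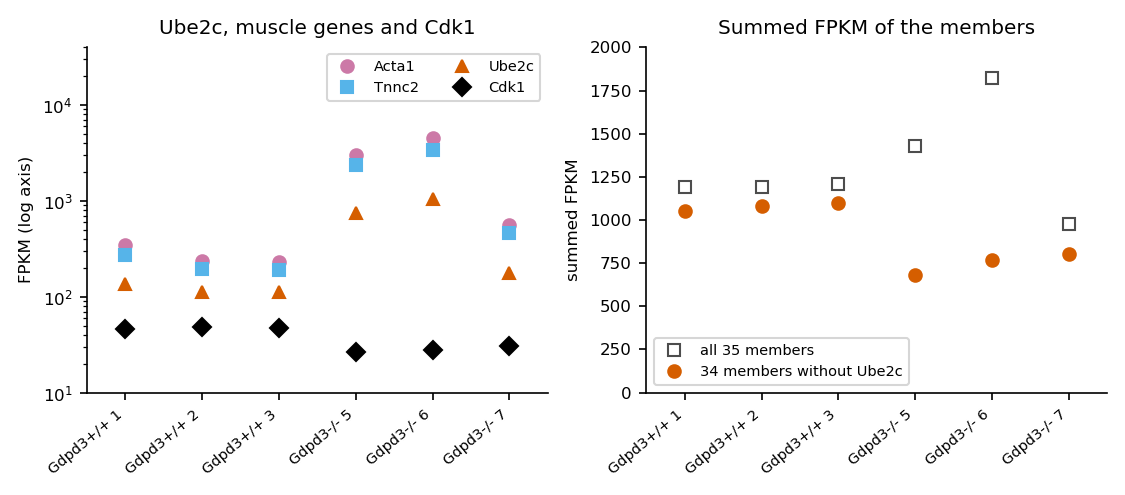
Left, FPKM on a log axis of Ube2c, the muscle genes Tnnc2 and Acta1, and Cdk1 in each library, with Ube2c highest in the Gdpd3-/- libraries 5 and 6, where Tnnc2 and Acta1 are highest. Right, FPKM summed over all 35 members (open squares) and over the 34 members without Ube2c (filled circles), which is between 1050 and 1100 in Gdpd3+/+ and between 679 and 803 in Gdpd3-/-.

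The Ube2c promoter, shown because its gene alone had a positive fitted value, held TTTGAA and CCAAT, as did many other members. Its window lies at chr2:164769699-164769948 on the plus strand of GRCm38.p6 and is printed as above.
Ube2c: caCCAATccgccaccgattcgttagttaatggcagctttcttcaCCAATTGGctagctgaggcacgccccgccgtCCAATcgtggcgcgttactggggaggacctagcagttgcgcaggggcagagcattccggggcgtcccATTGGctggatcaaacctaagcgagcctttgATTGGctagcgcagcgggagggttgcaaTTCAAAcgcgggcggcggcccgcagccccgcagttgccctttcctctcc
The reverse complement of TTTGAA starts at base -29, and CCAAT or its reverse complement is found at 6 places, a pair of which overlap in CCAATTGG.

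Ube2c decided the total of the list. Summed over all 35 members, FPKM was 1190, 1190 and 1210 in Gdpd3+/+ and 1430, 1820 and 979 in Gdpd3-/-, and Ube2c made up 11.4%, 9.4% and 9.21% of this in Gdpd3+/+ and 52.4%, 57.9% and 18% in Gdpd3-/-. The sums overlapped between the genotypes. Without Ube2c the sum was 1050, 1080 and 1100 in Gdpd3+/+ and 679, 766 and 803 in Gdpd3-/-. These sums did not overlap, and their means were 1080 ± 21.8 and 749 ± 63.8 FPKM (SD, n = 3 each), so that Gdpd3-/- held 69.6% of the Gdpd3+/+ level. With TMM scaling it was 60.0%. As a share of all fragments the 34 members took 0.399%, 0.412% and 0.417% in Gdpd3+/+ and 0.252%, 0.273% and 0.303% in Gdpd3-/-.

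Each Gdpd3-/- library had most members low, 27 of them in all 3 libraries, but the lowest library differed from gene to gene. In replicates 5, 6 and 7 the number of members below every Gdpd3+/+ library was 31, 30 and 33, and 2, 2 and 1 were above. Of all genes tested, 27.9%, 31.4% and 18% were below and 50.8%, 47.5% and 53.5% above in the same libraries. The median log2 ratio to the Gdpd3+/+ mean was -0.66, -0.49 and -0.42 for the members, against 0.17, 0.09 and 0.21 for all genes tested. Among the 34 members without Ube2c, replicate 5 held the lowest Gdpd3-/- value in 19, replicate 6 in 11 and replicate 7 in 4. The lowest log2 ratio was -2.04 for Ndc80 in replicate 5, -1.51 for Kif11 in replicate 6 and -1.11 for Cdc25c in replicate 7.

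Exons shared with other genes touch 9 members, among them Ccna2 (512 bases shared with Exosc9), Nusap1 (172 with Oip5), Cdca8 (232 with 9930104L06Rik) and Cdc20 (53 with Elovl1), besides Ube2c, Kif4 and Kif20a. The 26 members with no shared exon had a median log2 fold change of -0.53, and 19 of them had Gdpd3-/- lower without overlap.

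Other genes of mitosis, from a list of 50 that holds none of the members, had a median log2 fold change of -0.46, which is -0.70 from that of all genes, and 46 were negative. No overlap was seen in 29 of 50 with Gdpd3-/- lower (58.0%, against 8.27% of all genes tested) and in 0 with Gdpd3-/- higher (against 23.5%). Limma called 2 of them (4.0%, against 1.71% of all genes tested), both lower. Tacc3, which stabilizes spindle microtubules, fell from 53.1, 57.1 and 57.8 FPKM in Gdpd3+/+ to 31.3, 35.1 and 36.2 FPKM in Gdpd3-/-, a log2 fold change of -0.71 (SE 0.10, Benjamini-Hochberg adjusted p = 0.0325 by limma). Depdc1a fell from 8.53, 7.25 and 8.77 FPKM to 3.36, 3.20 and 4.43 FPKM, a log2 fold change of -1.15 (SE 0.19, Benjamini-Hochberg adjusted p = 0.0470 by limma). Both genes were lower in 3 of 3 Gdpd3-/- libraries with no overlap. Limma called 0 genes of this list without Gdpd3+/+ replicate 1, 2 or 3 or without Gdpd3-/- replicate 5 and 10 without Gdpd3-/- replicate 7. The adjusted p of Depdc1a was 0.0547 without Gdpd3-/- replicate 6, and over the alternatives the adjusted p ranged from 0.0126 to 0.210 for Tacc3 and from 0.0121 to 0.260 for Depdc1a. Either CHR form was in the promoter windows of 24 of 37 genes (64.9%) and CCAAT in 23 (62.2%), shares below those of the members and above those of all windows.

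**Figure D4:**
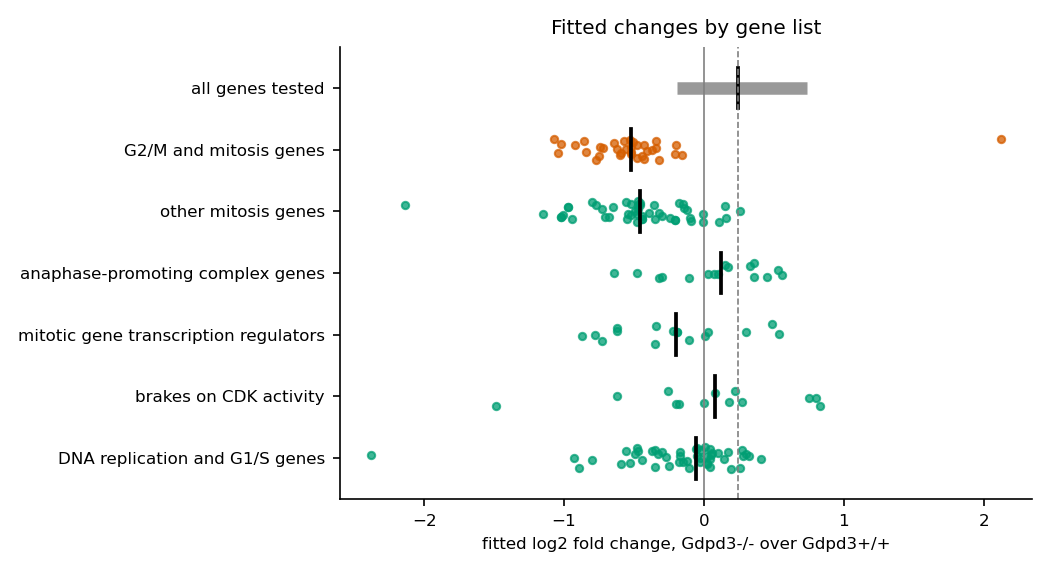
Fitted log2 fold change of Gdpd3-/- over Gdpd3+/+ (x axis) for each gene of 6 lists (points), with the median as a black bar. The grey bar spans the quartiles of all 24689 genes and the dashed line marks their median of 0.24, and the medians of the members (-0.52) and of other mitosis genes (-0.46) lie furthest to its left.

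A list of 14 subunits of the anaphase-promoting complex, its coactivator Fzr1 and its inhibitor Fbxo5 had a median log2 fold change of 0.12, or -0.12 relative to all genes. Of 16 genes 3 were lower without overlap (18.8%, against 8.27% of all genes tested) and 4 were higher (against 23.5%). Limma called 0, with 2 lower and 4 higher at an unadjusted p under 0.05. It called 3 without Gdpd3-/- replicate 7. With TMM scaling the median turned to -0.09 and 1 gene was called.

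Regulators of mitotic gene transcription had a median log2 fold change of -0.20, which is -0.44 from that of all genes. It was -0.37 without Gdpd3-/- replicate 5, -0.07 without replicate 6 and -0.09 with replicate 7 as the only Gdpd3-/- library. Limma called 0 of 16, with 2 lower and 1 higher at an unadjusted p under 0.05, and called 3 without Gdpd3-/- replicate 7. Foxm1, a factor that turns on G2/M genes, was at 6.98, 6.66 and 8.31 FPKM in Gdpd3+/+ and at 5.40, 1.71 and 6.46 FPKM in Gdpd3-/-. Replicate 6 was well below the rest and replicate 7 only just below Gdpd3+/+, and the log2 fold change was -0.87 (SE 0.48, limma, Benjamini-Hochberg adjusted p = 0.328). The log2 fold change of Foxm1 ran from -1.23 to -0.17 over the alternatives. Mybl2, which encodes B-Myb and acts with Foxm1, was at 12.3, 14.8 and 12.8 FPKM in Gdpd3+/+ and at 7.91, 6.42 and 9.93 FPKM in Gdpd3-/-. The genotypes did not overlap, and its log2 fold change was -0.73 (SE 0.19, limma, Benjamini-Hochberg adjusted p = 0.0953). Without Gdpd3-/- replicate 7 that adjusted p was 0.0272 by limma, in a range up to 0.316. E2f4, which represses these genes in quiescent cells, was at 44.0, 49.6 and 46.9 FPKM in Gdpd3+/+ and at 44.8, 46.8 and 52.4 FPKM in Gdpd3-/-. The groups overlapped, with replicate 7 above every Gdpd3+/+ library, and the fitted value of 0.03 (SE 0.10, limma, Benjamini-Hochberg adjusted p = 0.865) turned to -0.18 with TMM scaling and -0.12 with quantile normalization. It was -0.01 without Gdpd3+/+ replicate 1 and -0.03 without Gdpd3-/- replicate 7.

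Brakes on CDK activity had a median log2 fold change of 0.08, or -0.16 relative to all genes, and -0.13 with TMM scaling. With single libraries left out it ran from 0.03 (without Gdpd3+/+ replicate 1 or Gdpd3-/- replicate 5) to 0.14 (without Gdpd3-/- replicate 6). Of 14 genes 13 were tested, Cdkn2a being under the filter on low values, and limma called 0, with 1 lower and 3 higher at an unadjusted p under 0.05. It called 2 without Gdpd3-/- replicate 6 and 1 without replicate 7. Cdkn1a, the inhibitor p21, was at 5.37, 6.64 and 6.71 FPKM in Gdpd3+/+ and at 12.8, 8.04 and 13.2 FPKM in Gdpd3-/-. Every Gdpd3-/- library lay above every Gdpd3+/+ library, with a log2 fold change of 0.83 (SE 0.23, limma, Benjamini-Hochberg adjusted p = 0.108) and an adjusted p of 0.0433 without Gdpd3-/- replicate 6, in a range up to 0.341. Cdkn1b, the inhibitor p27, was at 2.79, 2.26 and 2.10 FPKM in Gdpd3+/+ and at 3.55, 5.12 and 3.61 FPKM in Gdpd3-/-, with a log2 fold change of 0.75 (SE 0.24, limma, Benjamini-Hochberg adjusted p = 0.143). The genotypes did not overlap in it either. Of the 13 genes tested, 2 were higher without overlap (15.4%, against 23.5% of all genes tested) and 1 lower (7.69%, against 8.27%). Gadd45b, a stress gene whose product can inhibit Cdk1, went the other way, at 14.3, 15.3 and 14.6 FPKM in Gdpd3+/+ and 9.66, 9.98 and 9.05 FPKM in Gdpd3-/-, and is named after its values were seen. Every Gdpd3-/- library was lower, with a log2 fold change of -0.62 and the smallest adjusted p of the list (SE 0.11, limma, Benjamini-Hochberg adjusted p = 0.0560), which was 0.0284 without Gdpd3-/- replicate 7, in a range up to 0.277. Cdkn1c, the inhibitor p57 that is abundant in quiescent stem cells, overlapped, at 7.71, 7.72 and 7 FPKM against 6.97, 9.63 and 10.9 FPKM. Wee1, the kinase that holds Cdk1 inactive, was at 32.5, 31.1 and 30.5 FPKM in Gdpd3+/+ and at 30.2, 23.4 and 43.8 FPKM in Gdpd3-/-. Gdpd3-/- held both its lowest and its highest value, and its fitted log2 fold change was 0.00 (SE 0.22, limma, Benjamini-Hochberg adjusted p = 0.998), with -0.21 under TMM scaling. Without Gdpd3-/- replicate 6 it was 0.21 and without replicate 7 it was -0.24. With replicate 7 as the only Gdpd3-/- library it was 0.48, in a fit that holds no spread within Gdpd3-/-.

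Genes of DNA replication and the G1/S transition, the step before G2/M in the cycle, had a median log2 fold change of -0.06 over 49 genes, which is -0.30 from that of all genes, and -0.28 with TMM scaling. That median was -0.18 without Gdpd3-/- replicate 7, -0.10 without Gdpd3+/+ replicate 1 and 0.07 with Gdpd3-/- replicate 7 as the only Gdpd3-/- library. Without overlap 10 were lower (20.4%, against 8.27% of all genes tested) and 5 higher (10.2%, against 23.5%). Limma called 1 (2.04%, against 1.71% of all genes tested), Rrm2, a subunit of ribonucleotide reductase. It fell from 96.6, 95.5 and 88.7 FPKM in Gdpd3+/+ to 43.7, 46.3 and 58.8 FPKM in Gdpd3-/-, a log2 fold change of -0.93 (SE 0.13, Benjamini-Hochberg adjusted p = 0.0334 by limma), and was lower in 3 of 3 libraries. Leaving out each single library other than Gdpd3-/- replicate 7 gave 0 calls in this list, and leaving out that replicate gave 6. The adjusted p of Rrm2 ranged from 0.00503 to 0.199 over the alternatives. Summed FPKM of the list was 1810, 1920 and 1840 in Gdpd3+/+ and 1540, 1650 and 1950 in Gdpd3-/-, so that replicate 7 was above every Gdpd3+/+ library, where the members without Ube2c were below in all 3. Promoter windows held either CHR form in 7 of 40 genes (17.5%) and CCAAT in 26 (65.0%). The difference between the members and this list was not tested.

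The genes outside all lists whose level followed the mean log2 level of the members most closely over the 6 libraries, of 14866 candidates with a mean of at least 1 FPKM, were Ms4a3, Tm9sf2, Ddhd2, Ap3s1 and Ly6c2. Pearson r was 0.9994, 0.9989, 0.9967, 0.9967 and 0.9966 (n = 6 libraries), values that the gap between the genotypes sets in part. Ms4a3, a gene of granulocyte and monocyte progenitors, was at 248, 265 and 275 FPKM in Gdpd3+/+ and at 55, 85.7 and 95.6 FPKM in Gdpd3-/-. Ly6c2, a surface antigen of monocytes and their progenitors, was at 1730, 1730 and 1800 FPKM against 437, 667 and 660 FPKM. As the member mean itself separates the genotypes, genes picked for following it differ between them by that choice, and no test of them is given.

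Markers of the cells that the sort could hold differed between the genotypes as well. Of 14 sort markers and stem cell genes limma called 2 (14.3%, against 1.71% of all genes tested), both higher. They were the gene for CD135, Flt3, and Cd34, named after their values were seen. Flt3 rose from 11, 10.6 and 9.80 FPKM in Gdpd3+/+ to 46.5, 37.8 and 36.8 FPKM in Gdpd3-/-, a log2 fold change of 1.93 (SE 0.13, limma, Benjamini-Hochberg adjusted p = 0.00562), in cells sorted as CD135-. Cd34 rose from 111, 111 and 105 FPKM to 187, 195 and 221 FPKM, a log2 fold change of 0.88 (SE 0.10, limma, Benjamini-Hochberg adjusted p = 0.0204). CD135 and CD34 are known to appear on early progenitors. The list had 0 calls without Gdpd3+/+ replicate 1 or 2 and 1 without replicate 3, where the limma adjusted p was 0.0705, 0.0502 and 0.0479 for Flt3 and 0.153, 0.148 and 0.158 for Cd34. It also had 1 call with quantile normalization and 1 with no intensity trend. Kit was at 128, 125 and 131 FPKM against 108, 108 and 136 FPKM, and the sum of the list was 1000, 914 and 988 in Gdpd3+/+ and 1310, 1070 and 1260 in Gdpd3-/-, with Ly6a, which encodes Sca-1, the most abundant and no gene at 0.

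Neutrophil markers belong to cells that a lineage-negative sort should remove. Their summed FPKM was 32500, 29700 and 31500 in Gdpd3+/+ and 13800, 8380 and 9390 in Gdpd3-/-, with S100a8 the most abundant and none of the 10 at 0. In 9 of 10 the genotypes did not overlap, and the median log2 fold change was -1.64. Limma called 5, all lower, which were Camp, Ltf, Ngp, Elane and Prtn3, and called 0 with no filter, with no intensity trend or without Gdpd3+/+ replicate 1, 2 or 3, 9 without Gdpd3-/- replicate 5, 2 without replicate 6 and 9 without replicate 7. Ly6g, an antigen of the sort, overlapped, at 44.2, 19.0 and 26.8 FPKM in Gdpd3+/+ and 25.7, 40.6 and 23.6 FPKM in Gdpd3-/-. Elane, Prtn3 and Mpo are also expressed by early myeloid progenitors.

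Plasma and B cell markers summed to 2540, 2360 and 3000 FPKM in Gdpd3+/+ and 1170, 1120 and 1990 FPKM in Gdpd3-/-, with Igj, the joining chain, the most abundant. Limma called 2 of 9 (22.2%, against 1.71% of all genes tested), Xbp1 and Mzb1 (listed as 2010001M09Rik), both lower. It called 0 with no filter, with no intensity trend or without any of Gdpd3+/+ replicates 1, 2 and 3 or Gdpd3-/- replicate 5. It called 5 without Gdpd3-/- replicate 7. Pax5 was listed at 0 in Gdpd3-/- replicates 5 and 6, and Ms4a1 in replicate 6. Erythroid markers summed to 4670, 3360 and 2870 FPKM in Gdpd3+/+ and 1860, 2860 and 4630 FPKM in Gdpd3-/-, which overlapped, with a globin gene the most abundant in every library and none of the 11 at 0. Of the 11 genes 10 were negative, with a median log2 fold change of -0.55, which is -0.79 from that of all genes, beside -0.52 and -0.76 for the G2/M and mitosis genes. Limma called 0 of them, with 1 lower at an unadjusted p under 0.05, and 4 without Gdpd3-/- replicate 7.

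T and NK cell markers summed to 386, 430 and 461 FPKM in Gdpd3+/+ and 163, 258 and 318 FPKM in Gdpd3-/-, nearly all of it Nkg7. The defining T cell genes Cd3e, Cd3d, Cd3g and Cd8a were under 1 FPKM in all libraries. Limma called 1 of the 6 tested (16.7%, against 1.71% of all genes tested), Gzma, named after its values were seen. It rose from 0.150, 0.560 and 0.330 FPKM to 10.6, 4.88 and 3.81 FPKM, a log2 fold change of 3.84 (SE 0.53, Benjamini-Hochberg adjusted p = 0.0321 by limma). Its adjusted p was 0.172, 0.142 and 0.174 without Gdpd3+/+ replicate 1, 2 or 3 and 0.0620 without Gdpd3-/- replicate 5, where the list had 0 calls, and 2 genes of the list were called without replicate 7. The list also had 0 calls with a pseudocount of 1, no filter, no intensity trend or array weights, and Gzma was called in 7 of 16 alternatives. Of 6 genes of the antigens in the lineage cocktail 5 were found by name and 4 tested, and limma called 0, with 1 lower at an unadjusted p under 0.05. Ptprc, which also encodes the pan-leukocyte antigen CD45, was the most abundant, in sums of 122, 88.8 and 98.2 FPKM in Gdpd3+/+ and 78.4, 89.9 and 83.6 FPKM in Gdpd3-/-, and Cd8a was listed at 0 in 4 libraries. The part of these marker genes in the values of the G2/M and mitosis genes was not tested.

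**Figure D5:**
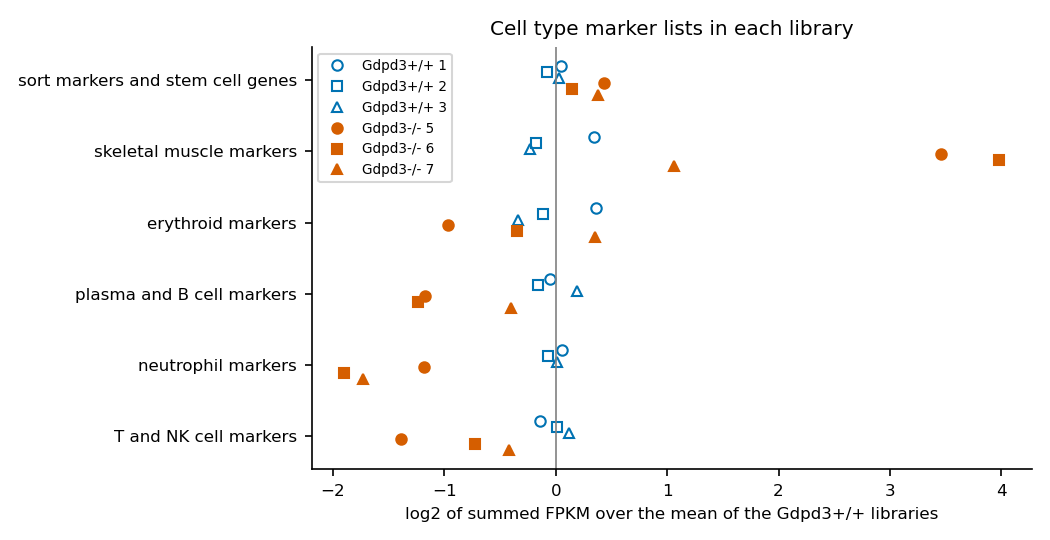
Log2 of the summed FPKM of each cell type marker list in each library over the mean of the Gdpd3+/+ libraries (x axis), for 6 lists. Skeletal muscle markers are above and neutrophil markers below Gdpd3+/+ (open blue symbols) in all 3 Gdpd3-/- libraries (filled orange symbols), with muscle markers least raised in replicate 7.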

How the data were processed

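FPKM values came as deposited by the authors, made from paired-end reads trimmed with cutadapt 1.16, Trim Galore and Trimmomatic, aligned to mm9 with STAR 2.6.1a and counted with featureCounts 1.6.1, per the submitters' processing notes. The base mean signal, also as deposited by the authors, is a mean over all libraries of counts divided by DESeq2 size factors. The authors' DESeq2 comparison columns (fold change, its SE, statistic, p and adjusted p) exist and were not used. Libraries were made with SMART-Seq v4 Ultra Low Input and Nextera XT, a kit that does not mark strand, and whether counting used strand is not stated.

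Depth per library was recovered as the factor that makes FPKM times exon length whole hundredths of a fragment, within a tolerance of 0.02. Against the base mean signal, 15188 genes with a base mean of at least 50 had a median ratio of 1.0, and 6 lay outside 1 percent. No FPKM column was left without a sample.

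For 24689 genes whose mean reached 0.05 FPKM, log2(FPKM + 0.1) was fitted on genotype with limma 3.58.1 (R 4.3.3), with empirical Bayes moderation, an intensity trend and Benjamini-Hochberg adjustment over all these genes, called at an adjusted p under 0.05. As alternatives, the pseudocount was set to 0.01 or 1, the filter was dropped or raised to 1 FPKM, and the fit was repeated with TMM scaling (trims of 30 and 5 percent), quantile normalization, no trend, array weights and without each library. Added after the data were seen were Gdpd3-/- replicate 7 as the only Gdpd3-/- library, and voom on recovered fragments. Exact two-sided permutation tests used all 20 assignments of libraries, so the smallest p is 0.1.

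Members and lists were chosen with earlier results of these data known. Genes named are the members called, the highest and lowest of each role, the 3 most abundant, Mki67, Top2a, Ccnb1, Cdk1, Plk1 and Gdpd3, the genes called in pathway lists, set regulators and brakes, and the 5 genes outside all lists with the highest Pearson r. Other members' values, marker genes and Gadd45b were named after their values were seen. Promoters came from RefSeq on GRCm38.p6. Tables and figures used Python 3.11.15, pandas 2.3.3, NumPy 2.4.6, SciPy 1.17.1 and Matplotlib 3.10.9.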

Additional observations from a re-analysis of the deposited data

How the results depend on the processing

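The number of genes called between genotypes, 422 with the fit used, was 225 with a pseudocount of 1, 213 with no filter, 673 with a filter at a mean FPKM of at least 1, 153 with no intensity trend and 240 with array weights. It was 2294 with Gdpd3-/- replicate 7 as the only Gdpd3-/- library and 903 with voom on recovered fragments, a pair of alternatives chosen after seeing the data. The first assumes that a lone sample varies like the others. Leaving out single libraries gave 0 (without Gdpd3+/+ replicate 1) to 3413 (without Gdpd3-/- replicate 7).

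Member genes called, 1 with the fit used, were 3 with a mean FPKM of at least 1, 8 with TMM scaling, 4 with quantile normalization, 0 with no intensity trend, where 20 had an unadjusted limma p under 0.05, 6 with Gdpd3-/- replicate 7 as the only Gdpd3-/- library, 3 with voom on recovered fragments, and 0 (without Gdpd3+/+ replicate 1) to 15 (without Gdpd3-/- replicate 7) with single libraries left out. The median log2 fold change of the member genes was -0.74 with TMM scaling. Their summed FPKM without Ube2c was 60.0% of Gdpd3+/+ with TMM scaling.

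Other mitosis genes called, 2 with the fit used, were 1 with a pseudocount of 1, 1 with no filter, 5 with TMM scaling, 0 with no intensity trend, 1 with array weights, 4 with Gdpd3-/- replicate 7 as the only Gdpd3-/- library and 0 (without Gdpd3+/+ replicate 1) to 10 (without Gdpd3-/- replicate 7). The median log2 fold change of other mitosis genes was -0.68 with TMM scaling, -0.58 with quantile normalization, -0.33 with Gdpd3-/- replicate 7 as the only Gdpd3-/- library, and -0.55 (without Gdpd3-/- replicate 7) to -0.35 (without Gdpd3-/- replicate 6).

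Anaphase-promoting complex genes called were 1 with TMM scaling and 0 (without Gdpd3+/+ replicate 1) to 3 (without Gdpd3-/- replicate 7). Their median log2 fold change was -0.09 with TMM scaling, 0.02 with quantile normalization, 0.03 with Gdpd3-/- replicate 7 as the only Gdpd3-/- library and 0.08 to 0.17 with single libraries left out. Mitotic gene transcription regulators had a median log2 fold change of -0.42 with TMM scaling and -0.37 to -0.07 with single libraries left out, and 0 to 3 were called with single libraries left out. Brakes on CDK activity called were 1 with a mean FPKM of at least 1, 1 with TMM scaling, 3 with Gdpd3-/- replicate 7 as the only Gdpd3-/- library and 0 to 2 with single libraries left out, and their median log2 fold change was -0.13 with TMM scaling. DNA replication and G1/S genes called were 0 with no filter, 0 with no intensity trend and 0 to 6 with single libraries left out, with a median log2 fold change of -0.28 with TMM scaling, -0.24 with quantile normalization, 0.07 with Gdpd3-/- replicate 7 as the only Gdpd3-/- library and -0.18 (without Gdpd3-/- replicate 7) to -0.05 with single libraries left out.

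The log2 fold change of E2f4 was -0.18 with TMM scaling, -0.12 with quantile normalization and -0.03 (without Gdpd3-/- replicate 7) to 0.08 (without Gdpd3-/- replicate 5). That of Wee1 was -0.21 with TMM scaling, -0.10 with quantile normalization and -0.03 with voom on recovered fragments. It was 0.48 with Gdpd3-/- replicate 7 as the only Gdpd3-/- library, and -0.24 (without Gdpd3-/- replicate 7) to 0.21 (without Gdpd3-/- replicate 6).

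No paired analysis was possible because the genotypes share no replicate number (1 to 3 against 5 to 7). Gdpd3-/- replicates 5 and 6 hold high skeletal muscle RNA and the Gdpd3-/- libraries are shallower, with which the values of low genes are less precise, and the cause of the differences was not tested. Genotype cannot be separated from a batch that follows it.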
